A study of Mus musculus with 8 samples.

Results

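The HoxD cluster is a run of 9 homeobox transcription factor genes on mouse chromosome 2. The members were taken by name, as all genes called Hoxd in the mm9 annotation: Hoxd13, Hoxd12, Hoxd11, Hoxd10, Hoxd9, Hoxd8, Hoxd3, Hoxd4 and Hoxd1, in the order of their transcriptional start sites (TSSs), 9 of the 26212 annotated genes. For each gene the histone H3 lysine 4 trimethylation (H3K4me3) tags, that is, sequenced and mapped 36-bp reads, were counted within 1 kb of its TSS and in the stretches between neighbouring TSSs. All 9 genes are transcribed from the plus strand, and the window studied, from 1 kb before Hoxd13 to 1 kb past Hoxd1, was chr2:74505367-74604200 (98.8 kb, build mm9). Where a gene has several annotated starts, the start with the most H3K4me3 tags over the 4 ChIP libraries was used. Hoxd4 lies within the annotated span of Hoxd3 (chr2:74549986-74586331), and an alternative start of Hoxd3 falls inside the Hoxd4 window, so the tags there cannot be given to either gene alone.

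The study mapped H3K4me3 by ChIP-Seq in mouse embryonic stem cells (mESCs) and in the pancreatic islet-like endocrine cells (PILECs) made from them in culture, in wild-type (wt) and menin-null cells. The wt cells were the TC-1 line and the menin-null cells the Men1-ko line 3.2N, both on the 129S6/SvEvTac background. The 8 libraries were 1 H3K4me3 ChIP and 1 input DNA library for each genotype at each stage. Each genotype was represented by 1 cell line, the mESCs were grown on irradiated feeder fibroblasts before they were made feeder-free, and the PILECs were an in vitro product. With 1 library per group there was no replicate error: the intervals and exact tests below cover counting error only, and they compare libraries, not conditions.

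Genes of the HoxD cluster pattern the trunk, the limbs and the urogenital tract of the embryo, and their order along the chromosome follows the order in which they are used along the body axis, with Hoxd1 at the anterior and early end and Hoxd13 at the posterior and late end. H3K4me3 marks the starts of active genes and, together with the repressive mark H3K27me3, the starts of developmental genes that are held silent in embryonic stem cells. Menin, the product of Men1, is a subunit of the MLL1 and MLL2 histone methyltransferase complexes that place H3K4me3.

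The CG content of the starts differed between members. The sequences of 4 promoters and of the most heavily marked window in wt PILECs are shown as description only. Each promoter runs from 250 bases before the TSS to 50 bases from it, in mm9, plus strand, with every CG in capitals. Hoxd13 and Hoxd1 are the ends of the cluster, and Hoxd8 and Hoxd3 are its middle, at chr2:74506117-74506416, chr2:74600787-74601086, chr2:74542959-74543258 and chr2:74549736-74550035. The fifth sequence, chr2:74550227-74550526, is the 300-base window with the most wt PILEC tags in the cluster, 241 to 540 bases past the Hoxd3 start, where 83 H3K4me3 tags were counted in wt and 13 in menin-null PILECs.
Hoxd13: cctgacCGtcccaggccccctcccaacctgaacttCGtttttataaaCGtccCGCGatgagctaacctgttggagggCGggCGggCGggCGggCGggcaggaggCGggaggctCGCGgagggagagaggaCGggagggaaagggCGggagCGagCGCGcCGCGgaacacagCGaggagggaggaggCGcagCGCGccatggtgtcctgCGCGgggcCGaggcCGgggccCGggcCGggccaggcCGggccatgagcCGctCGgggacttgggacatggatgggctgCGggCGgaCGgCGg
Hoxd1: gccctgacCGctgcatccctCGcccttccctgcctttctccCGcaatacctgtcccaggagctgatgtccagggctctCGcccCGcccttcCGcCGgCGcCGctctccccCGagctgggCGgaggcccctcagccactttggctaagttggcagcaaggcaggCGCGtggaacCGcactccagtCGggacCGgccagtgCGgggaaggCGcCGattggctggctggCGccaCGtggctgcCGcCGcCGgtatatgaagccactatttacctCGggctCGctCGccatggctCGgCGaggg
Hoxd8: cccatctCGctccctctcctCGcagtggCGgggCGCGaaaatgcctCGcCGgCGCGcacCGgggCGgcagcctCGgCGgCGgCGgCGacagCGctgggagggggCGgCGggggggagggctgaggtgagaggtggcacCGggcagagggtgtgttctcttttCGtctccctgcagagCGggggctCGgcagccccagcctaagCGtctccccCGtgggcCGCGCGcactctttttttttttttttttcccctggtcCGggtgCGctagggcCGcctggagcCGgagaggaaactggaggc
Hoxd3: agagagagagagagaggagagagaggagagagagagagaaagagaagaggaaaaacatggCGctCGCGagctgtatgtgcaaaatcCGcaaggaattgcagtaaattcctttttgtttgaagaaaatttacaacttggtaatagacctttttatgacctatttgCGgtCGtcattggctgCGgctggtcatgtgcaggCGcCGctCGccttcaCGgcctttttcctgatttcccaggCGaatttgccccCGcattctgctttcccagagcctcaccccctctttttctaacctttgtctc
Hoxd3 marked window: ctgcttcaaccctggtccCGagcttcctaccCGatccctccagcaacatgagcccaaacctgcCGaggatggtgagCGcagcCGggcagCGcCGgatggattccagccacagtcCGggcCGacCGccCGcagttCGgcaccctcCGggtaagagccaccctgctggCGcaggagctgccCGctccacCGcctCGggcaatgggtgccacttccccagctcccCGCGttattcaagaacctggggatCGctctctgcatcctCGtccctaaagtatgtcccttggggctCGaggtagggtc
The printed promoters held 37 CG for Hoxd13, 32 for Hoxd8, 29 for Hoxd1 and 13 for Hoxd3, against a median of 12 over all 26212 promoters of this length. Of the promoters not printed, Hoxd11 held 27, Hoxd12 13, Hoxd9 11, Hoxd10 8 and Hoxd4 6. The marked window downstream of Hoxd3 held 22. Within 1 kb on either side of the start, CG counts ran from 211 at Hoxd8, 192 at Hoxd11, 160 at Hoxd13, 147 at Hoxd9 and 143 at Hoxd1 to 88 at Hoxd3, 84 at Hoxd12, 79 at Hoxd10 and 73 at Hoxd4. Every member lay above the median of 59 over all genes. Of the other letters searched in the 300-base promoters on both strands, TATAAA was found at 1 of the 9 (Hoxd13; 12.1% of all promoters), CCAAT at 4 (35.6%) and TAATTA at 1 (4.49%). Such matches only describe the letters in this window.

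The H3K4me3 libraries held 2432377 (wt) and 3517028 (menin-null) tags in mESCs and 18773635 (wt) and 17682677 (menin-null) tags in PILECs, so values from mESCs rest on far fewer tags. Input libraries held 3744616 to 19016697 tags, and tags that shared a position and strand made up 1.77% to 11.5% of a library. Exons 3 to 8 of Men1 held 17, 22 and 24 tags in the wt mESC input, wt PILEC input and wt PILEC H3K4me3 libraries and 0 tags in all 4 menin-null libraries (floor 3 tags), and the wt mESC H3K4me3 library also held 0. The pluripotency marker list (6 genes) carried 273 and 368 RPM (tags per 1000000 tags of the library) in mESCs and 61.6 and 63.4 in PILECs. The 13 islet markers together carried 66.8 and 71.6 RPM in wt and menin-null PILECs against 10.6 and 12.1 in input, and Neurod1, an endocrine transcription factor, had 136 and 98 tags (16 and 10 in input), while the hormone genes Ins1 (4 and 9 tags in wt and menin-null PILECs, 18 and 22 in input) and Gcg (6 and 8, 15 and 19 in input) lay below input.

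In mESCs H3K4me3 sat in narrow peaks at HoxD starts in both genotypes, and in wt PILECs it spread over the middle of the cluster, as the profile along the cluster shows.

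**Figure D1:**
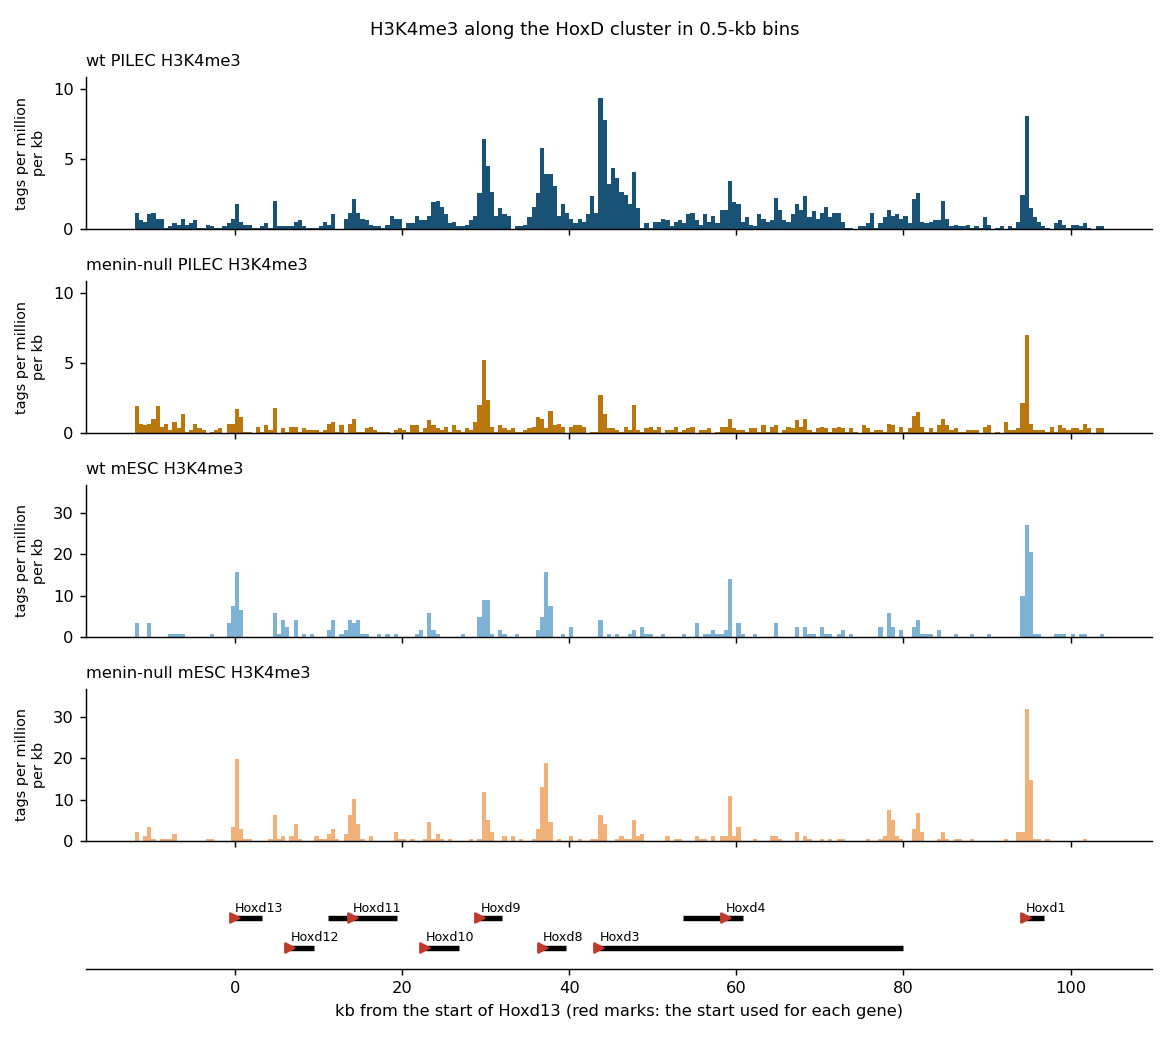
H3K4me3 RPM per kb in 0.5-kb bins (vertical axes) against the distance in kb from the start of Hoxd13 (horizontal axis), for the 4 ChIP libraries, with the 9 genes as black bars and the start used for each in red; the upper pair and the lower pair of panels have different vertical scales. In menin-null PILECs the peaks at Hoxd9 and Hoxd1 stand out (84 and 91 tags within 1 kb), while the broad signal around Hoxd8, Hoxd3 and Hoxd4 in wt PILECs is reduced to 37, 40 and 17 tags within 1 kb of these starts.

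In wt mESCs the highest member was Hoxd1, which acts in the hindbrain and in sensory neurons, with 70 tags within 1 kb of its TSS (28.8 RPM, 95% Poisson interval 22.4 to 36.4). Hoxd13, a limb and genital patterning gene, followed with 40 tags (16.4 RPM), Hoxd8 with 36 (14.8 RPM) and Hoxd9 with 28 (11.5 RPM). These 4 genes are among the 5 with the most CG around the start, and the fifth, Hoxd11, ranked lower. Across the 9 genes of this 1 library, which are not independent replicates, Spearman's rho of level and CG count was 0.48, against 0.72 for the menin-null mESC library, and for PILECs it was 0.29 (wt) and 0.32 (menin-null). Hoxd4 had 21 tags, Hoxd11 16, Hoxd12 13, Hoxd10 10 and Hoxd3 6 (2.47 RPM). This order was set by the same counts, so the direction of each step between neighbours was fixed, and the step intervals were not adjusted. Only the step from Hoxd1 to Hoxd13 had an interval above 0 (log2 0.81, exact 95% interval 0.23 to 1.41). In menin-null mESCs Hoxd1 was again highest with 88 tags (25.0 RPM), then Hoxd8 with 70 (19.9 RPM), Hoxd13 with 46 (13.1 RPM) and Hoxd11 with 39 (11.1 RPM). There only the step from Hoxd8 to Hoxd13 had an interval above 0, and narrowly (log2 0.61, 0.05 to 1.18). Hoxd3 was not above its input in wt mESCs (log2 over input -0.42, -2.08 to 1.05) and was above it in menin-null mESCs (1.61, 0.31 to 3.09).

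**Figure D2:**
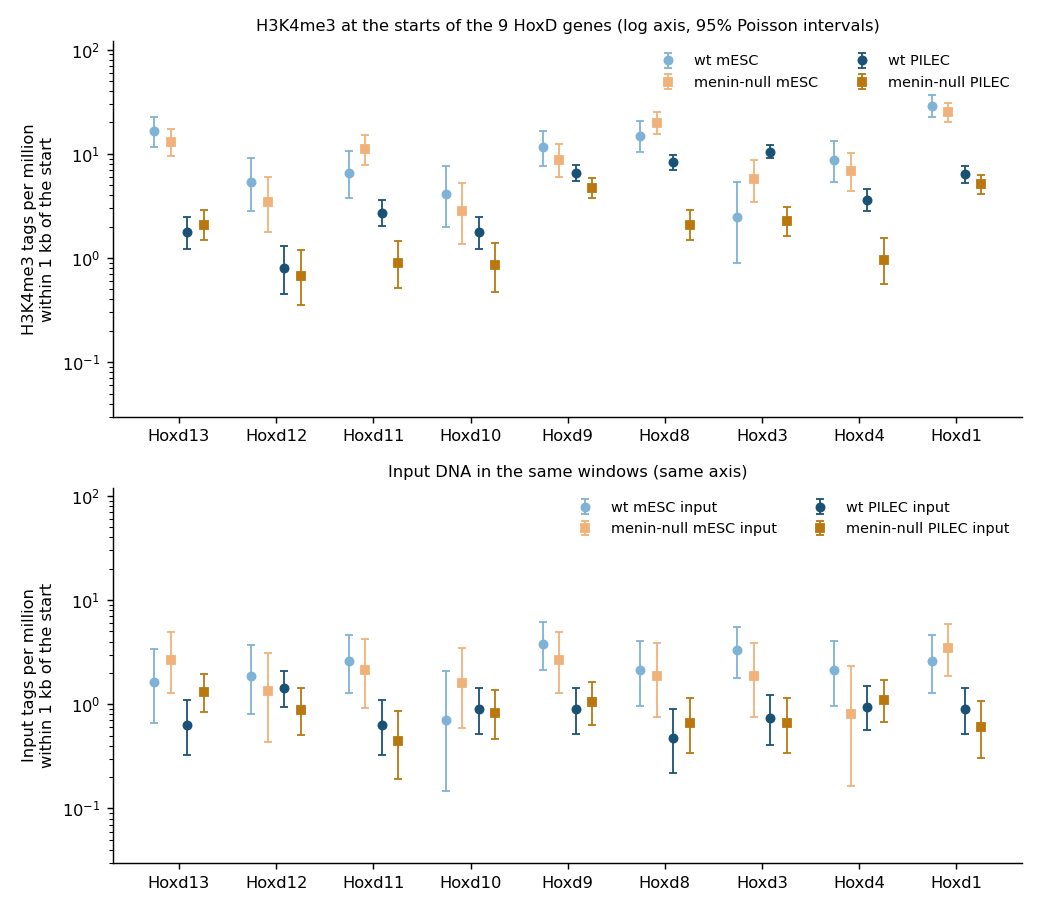
RPM within 1 kb of each HoxD start (vertical log axes, the same in both panels) for the 9 genes in genomic order, H3K4me3 ChIP above and input DNA below, in the 4 cell populations; points are single libraries and bars are 95% Poisson intervals of the count. Hoxd3 rises from 2.47 RPM in wt mESCs to 10.5 RPM in wt PILECs, and the wt and menin-null PILEC intervals are apart at Hoxd11, Hoxd8, Hoxd3 and Hoxd4.

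Loss of menin was not accompanied by a called change at any HoxD start in mESCs. A call required at least a 2-fold difference in RPM, with 1 tag added to each count, and an adjusted p of at most 0.05 in an exact conditional binomial test, Benjamini-Hochberg adjusted over all genes with at least 10 tags in the pair of libraries. All 9 genes were tested and 0 were called, where 0.297% of the 16171 genes tested were lower and 0.482% higher in menin-null mESCs. A count of 0 in 9 genes is near those shares. The log2 ratios of menin-null over wt ran from -0.65 at Hoxd12 to 1.20 at Hoxd3, and all 9 exact intervals contained 0, where 2.03% of genes had an interval below 0 and 24.3% above 0. Counts were low and several intervals reached past a 2-fold change, such as those of Hoxd10 (-1.95 to 0.89), Hoxd12 (-1.91 to 0.60) and Hoxd11 (-0.12 to 1.69). Changes of that size were thus not excluded there. The largest rise was at Hoxd3, with 6 tags in wt and 20 in menin-null mESCs (interval -0.16 to 2.81, adjusted p = 0.282, exact test). With input subtracted, Hoxd3 was called higher (log2 3.28). The median over the 9 genes was -0.33 and over all genes tested 0.21, so that scaling to a median of 0 would lower each of these ratios by 0.21.

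In PILECs, 4 of the 9 HoxD starts carried less H3K4me3 in menin-null than in wt cells, and all 4 lay between Hoxd11 and Hoxd4. Hoxd3, Hoxd8, Hoxd4 and Hoxd11 were called lower and 0 were called higher, where 0.853% of the 24032 genes tested were lower and 0.354% higher. The median log2 ratio over the 9 genes was -1.0, and over all genes tested -0.06. The exact interval lay below 0 at 6 of the 9 genes (the 4 called, Hoxd10 and Hoxd9), where 20.1% of genes had one below 0 and 5.08% above 0. In these bulk samples, fewer cells with the mark and less of the mark per cell cannot be told apart.

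Hoxd3, which patterns the cervical spine and hindbrain, had the largest fall of the members, with an interval overlapping those of Hoxd8, Hoxd4 and Hoxd11. It carried 197 tags (10.5 RPM) in wt and 40 (2.26 RPM) in menin-null PILECs, a log2 ratio of -2.21 (-2.74 to -1.72), or 4.64-fold lower, with an adjusted p of 4.53e-21 in the exact test. The input held 14 and 12 tags in the same window. Within the window the wt signal leaned downstream, with 151 tags in the kilobase after the TSS and 46 in the kilobase before it, against 34 and 6 in menin-null PILECs. From 1 to 3 kb downstream the counts were 131 in wt and 7 in menin-null PILECs, with 20 and 17 in input. The mark beyond the first kilobase of Hoxd3 was thus at 0.20 RPM per kb in menin-null PILECs, below the 0.47 RPM per kb of the input.

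Hoxd8, a trunk patterning gene in the middle of the cluster, carried 155 tags (8.26 RPM) in wt and 37 (2.09 RPM) in menin-null PILECs. It was 3.95-fold lower (log2 -1.98, -2.54 to -1.46, adjusted p = 3.52e-14, exact test). All 3 annotated starts of Hoxd8 lay between log2 -2.19 and -1.98, but their windows overlap, so these values share tags. In menin-null PILECs the main start was still above input (log2 1.66, 0.69 to 2.73), while at the other 2 starts the intervals contained 0 (0.23, -0.68 to 1.15, and 0.94, -0.02 to 1.95).

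Hoxd4, which acts with Hoxd3 in the hindbrain and neck, carried 68 tags in wt (3.62 RPM) and 17 in menin-null PILECs (0.961 RPM), a log2 ratio of -1.91 (-2.77 to -1.13, adjusted p = 4.31e-06, exact test). Its input held 18 and 20 tags, and in menin-null PILECs Hoxd4 was not above input (log2 -0.20, -1.22 to 0.81). From the 5′-most annotated start of Hoxd4, which carried 26 and 12 tags, the fall was -0.97 with 1 tag added to each count and was not called. At the hairpin of Mir10b, a microRNA gene upstream of the Hoxd4 start and at the edge of its window (chr2:74564127-74564194), 33 tags in wt and 11 in menin-null PILECs were counted within 1 kb, a log2 ratio of -1.50 (-2.63 to -0.48), with 18 and 23 tags in input. This window overlaps that of Hoxd4, so the values share tags. The mature sequences of Mir10b in RefSeq (GRCm38.p6), with the seed (bases 2 to 8) in capitals, identify the small RNAs encoded there.
mmu-miR-10b-5p: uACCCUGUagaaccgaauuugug
mmu-miR-10b-3p: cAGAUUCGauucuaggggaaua

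Hoxd11, which shapes the forearm and the kidney, carried 51 tags in wt (2.72 RPM) and 16 in menin-null PILECs (0.905 RPM), a log2 ratio of -1.59 (-2.50 to -0.75, adjusted p = 0.000979, exact test). This call depended on the start chosen. At the 5′-most start of Hoxd11 the counts were 19 and 16 tags and the ratio was -0.15 with 1 tag added, and within 0.5 kb of the main start it was -1.0 and not called. In menin-null PILECs the main start had 16 tags against 8 in input, and the interval over input contained 0 (log2 1.04, -0.27 to 2.47).

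The other 5 members were not called. Hoxd10, a gene of lumbar motor neurons and the hindlimb, had 33 tags in wt and 15 in menin-null PILECs (log2 -1.05, -2.04 to -0.13, adjusted p = 0.114, exact test), the latter at its input level of 15 tags. Hoxd9 had 124 and 84 tags (log2 -0.48, -0.89 to -0.06, adjusted p = 0.111, exact test) and stayed above input in menin-null PILECs (2.18, 1.45 to 2.98). Hoxd1 had 119 and 91 tags (log2 -0.30, -0.71 to 0.11). At the far end, Hoxd13 had 33 and 37 tags (log2 0.25, -0.47 to 0.97), with 12 and 24 tags in input, and with input subtracted its ratio, with 1 tag added, was -0.47. Hoxd12, which acts with Hoxd13 in the digits, had 15 and 12 tags in PILECs and was not above input in either genotype. Hoxd9 and Hoxd1 were thus the highest members in menin-null PILECs, at 4.75 and 5.15 RPM, whereas Hoxd3 and Hoxd8 were the highest in wt PILECs. Steps between neighbours were again taken in the order of the same counts, with unadjusted intervals. In wt PILECs the interval lay above 0 from Hoxd3 to Hoxd8 (lower limit 0.03), from Hoxd1 to Hoxd4 and from Hoxd13 to Hoxd12. In menin-null PILECs it did so from Hoxd9 to Hoxd3 and from Hoxd8 to Hoxd4.

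**Figure D3:**
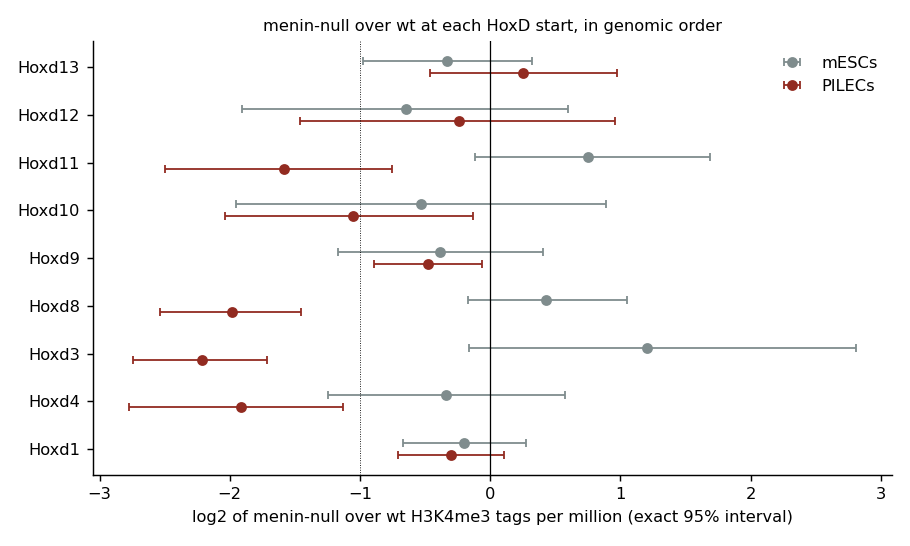
Log2 of menin-null over wt H3K4me3 RPM within 1 kb of each HoxD start (horizontal axis) for the 9 genes in genomic order (vertical axis), in mESCs and PILECs; points are ratios of 2 libraries, bars are exact 95% intervals, and the dotted line marks a 2-fold fall. The PILEC values at Hoxd11, Hoxd8, Hoxd3 and Hoxd4 lie between -2.21 and -1.59, and all 9 mESC intervals cross 0.

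Whether the ratio of menin-null to wt itself differed between the stages was tested with the exact conditional odds ratio of the 4 counts. At 3 HoxD genes the ratio was lower in PILECs than in mESCs by this test, where 11.9% of the 24356 genes tested were called lower and 0.349% higher, and the median over all of them was -0.22. Hoxd3 differed most, by -3.42 on the log2 scale (-5.09 to -1.92, adjusted p = 3.03e-05, exact test). Hoxd8 differed by -2.41 (-3.24 to -1.58, adjusted p = 1.19e-07, exact test) and Hoxd11 by -2.34 (-3.62 to -1.07, adjusted p = 0.00204, exact test). The call at Hoxd11 was lost with its 5′-most start (-0.08) and when libraries were scaled by the tags in enriched regions (-1.85). Hoxd4 differed by -1.57 (-2.82 to -0.33) and missed the threshold (adjusted p = 0.0749, exact test). For the other 5 genes the intervals contained 0.

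Between mESCs and PILECs of the same genotype, H3K4me3 RPM was lower in PILECs at most HoxD starts, while Hoxd3 RPM was higher in wt PILECs and, unlike its level relative to input, lower in menin-null PILECs. In wt cells 5 genes were lower in PILECs (Hoxd13, Hoxd12, Hoxd11, Hoxd4 and Hoxd1), where 11.8% of the 21253 genes tested were lower, and Hoxd3 was higher, where 4.86% were higher. Hoxd13 fell most, 9.36-fold, from 16.4 to 1.76 RPM (log2 -3.23, -3.94 to -2.52). Hoxd1 fell 4.54-fold, from 28.8 to 6.34 RPM. The fall at Hoxd4 (log2 -1.25, -1.98 to -0.47) turned to a value of 0.81 when its 5′-most start was used. Hoxd3 rose 4.25-fold, from 2.47 to 10.5 RPM (log2 2.09, 0.94 to 3.55, adjusted p = 0.000123, exact test). In menin-null cells 8 genes were lower in PILECs, all but Hoxd9, where 17.8% of the 21633 genes tested were lower and 3.78% higher, and 0 were higher. There Hoxd3 fell 2.51-fold, from 5.69 to 2.26 RPM (log2 -1.33, -2.14 to -0.48). Hoxd11 fell 12.3-fold and Hoxd8 9.51-fold. The 2 stage comparisons and the 2 genotype comparisons share libraries, so they are not independent of each other. Input within the 9 TSS windows was itself higher in mESCs, at 1.15 and 1.02 RPM per kb in wt and menin-null cells, than in PILECs, at 0.418 and 0.420, and relative to input the order of the stages differed at some starts. In wt cells the fold over input went from 2.54 in mESCs to 4.31 in PILECs at Hoxd11, from 3.06 to 7.39 at Hoxd9 and from 6.99 to 17.4 at Hoxd8, against 4.08 to 3.83 at Hoxd4, and over the 9 windows together from 4.76 to 5.63. The fold over input in wt cells also fell at Hoxd13 (9.98 to 2.79), Hoxd12 (2.84 to 0.563), Hoxd10 (5.82 to 1.97) and Hoxd1 (11.1 to 7.09), and it rose at Hoxd3 (0.749 to 14.3). In menin-null cells it went from 3.04 to 3.42 at Hoxd3, from 3.30 to 4.53 at Hoxd9 and from 7.21 to 8.48 at Hoxd1, fell at the other members, and over the 9 windows went from 5.25 to 2.61. With input subtracted, 4 genes were called lower in wt PILECs: Hoxd11 (log2 -1.09) and Hoxd12 (-6.12, its PILEC level being below input) lost their calls and Hoxd10 (-2.03) gained one.

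Between the starts, wt PILECs carried H3K4me3 over the middle of the cluster that was lower in menin-null PILECs. The 8 stretches between neighbouring TSS windows were compared in the same way, and in 6 of them the exact interval of the menin-null over wt ratio in PILECs lay below 0. Among 10908 stretches of up to 50 kb between neighbouring protein-coding starts, 5.09% had such an interval and 8.07% one above 0, and their median log2 ratio was 0.06. The 6 stretches formed 1 continuous run from Hoxd11 to Hoxd1. The stretch from Hoxd3 to Hoxd4 (13.1 kb) had the largest fall, from 320 to 73 tags (1.30 to 0.314 RPM per kb, log2 -2.05, -2.43 to -1.67). Of these tags, 131 in wt and 7 in menin-null PILECs lay 1 to 3 kb past the Hoxd3 start, so the fall was not even along the stretch. Alternative annotated starts also lie inside stretches, of Hoxd4 in this one and of Hoxd3 in that from Hoxd4 to Hoxd1. The stretch from Hoxd8 to Hoxd3 fell from 104 to 34 tags (log2 -1.53, -2.13 to -0.96), that from Hoxd10 to Hoxd9 from 75 to 25 (-1.50, -2.21 to -0.83), and that from Hoxd9 to Hoxd8 from 101 to 35 (-1.44, -2.04 to -0.87). These 4 stretches had more tags in wt PILECs than in wt mESCs relative to depth, with intervals above 0, where 6.50% of stretches had one. The long stretch from Hoxd4 to Hoxd1 (33.9 kb) fell from 485 to 210 tags (log2 -1.12, -1.36 to -0.88), and that from Hoxd11 to Hoxd10 from 59 to 31 (-0.84, -1.52 to -0.19).

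In the 2 stretches at the Hoxd13 end the intervals contained 0. From Hoxd13 to Hoxd12 the counts were 36 and 30 tags (log2 -0.18, -0.93 to 0.56) and from Hoxd12 to Hoxd11 27 and 32 tags (0.33, -0.45 to 1.13). In wt PILECs the 5 stretches from Hoxd10 to Hoxd1 were above input, by log2 0.74 to 1.68, and in menin-null PILECs they lay below it, by log2 -0.92 to -0.48, with an interval that contained 0 for the stretch from Hoxd8 to Hoxd3. Outside the cluster, between Hoxd1 and Mtx2, the ChIP density was 0.235 RPM per kb in wt and 0.223 in menin-null PILECs (log2 -0.08, -0.33 to 0.18). On the other side, between Evx2 and Hoxd13, it was 0.302 in wt and 0.353 in menin-null PILECs (log2 0.23, -0.43 to 0.89). In the 8 stretches inside the cluster in menin-null PILECs it ran from 0.263 to 0.403, a range that holds the value of the Evx2 side. In mESCs 0 of the 8 stretches had an interval below 0, where 5.91% of 9258 stretches had one, and 0 had one above 0, where 4.24% did.

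**Figure D4:**
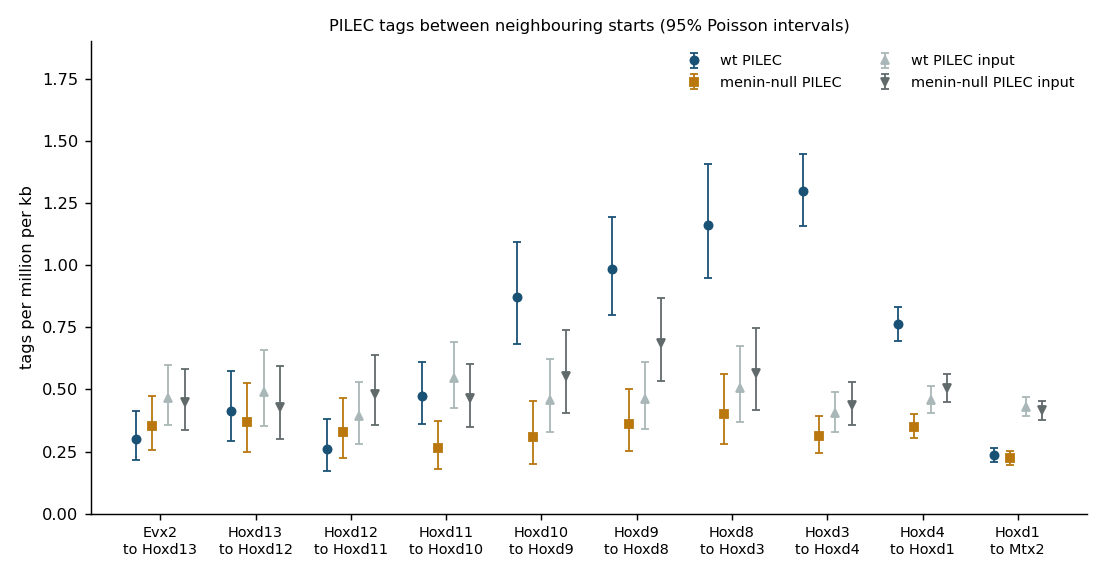
H3K4me3 and input RPM per kb (vertical axis) in PILECs for the 8 stretches between HoxD TSS windows and for the flanking stretches towards Evx2 and Mtx2 (horizontal axis, genomic order); points are single libraries and bars are 95% Poisson intervals. From Hoxd10 to Hoxd1 the wt PILEC points, 0.762 to 1.30 RPM per kb, lie above the other 3 libraries, and in the flanks and near Hoxd13 they do not.

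Over the whole 98.8-kb window, H3K4me3 tags numbered 355 in wt and 515 in menin-null mESCs, and 2016 in wt and 827 in menin-null PILECs. The PILEC total was 2.30-fold lower in menin-null cells (log2 -1.20, -1.32 to -1.08), while the interval for the mESC totals contained 0 (log2 0.005, -0.19 to 0.20). Scaled by tags in enriched regions the mESC ratio was -0.28 (-0.48 to -0.08), and scaled to a median ratio of 0 it was -0.21 (-0.41 to -0.008), both below 0. In menin-null PILECs the ChIP total equalled that of input relative to depth (log2 -0.04, -0.18 to 0.10). PILEC input totals were 844 and 872 tags (log2 0.12, -0.02 to 0.26). The share of H3K4me3 tags that lay outside the 9 TSS windows, a part that holds 81.8% of the bases, was 32.4% in wt mESCs (exact binomial 95% interval 27.6% to 37.5%) and 34.0% in menin-null mESCs (29.9% to 38.3%). In PILECs it was 60.6% in wt (58.4% to 62.7%) and 57.8% in menin-null cells (54.3% to 61.2%), against 83.1% and 84.3% in the PILEC inputs. The mESC inputs had lower shares, 72.5% in wt and 77.4% in menin-null cells, so the shares of the 2 stages have unlike baselines. Outside the TSS windows the ChIP lay above input in wt PILECs (0.805 against 0.456 RPM per kb, log2 0.82, 0.68 to 0.96). In menin-null PILECs it lay below input (0.334 against 0.502, log2 -0.59, -0.75 to -0.42), so the share outside there cannot be read as enriched signal alone. ChIP and input were each scaled to their own totals, and the flanks also lay below input. From Hoxd1 to Mtx2 the log2 over input was -0.86 in wt and -0.90 in menin-null PILECs, and from Evx2 to Hoxd13 -0.63 and -0.35. A value at or below input thus does not show that no mark was left. In mESCs the ChIP outside the windows was not above input either (log2 -0.21, -0.54 to 0.12, in wt and -0.34, -0.63 to -0.05, in menin-null cells), so the same limit holds for both mESC shares. The menin-null over wt ratio in PILECs was -1.10 inside the windows (-1.29 to -0.92) and -1.27 outside them (-1.42 to -1.11). Of the 495 windows of 200 bp that tile the cluster, 47 reached 0.5 RPM in wt and 13 in menin-null PILECs, and 0 did in either input.

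Enriched regions were set from the pooled genotypes of a stage, genome-wide, and compared in the same way. In PILECs 3 regions overlapped the cluster and 2 of them were lost in menin-null cells, where 1.27% of the 13107 regions were lost and 0.237% gained. The region over the Hoxd3 start (chr2:74549201-74552800) held 310 tags in wt and 46 in menin-null PILECs (6.35-fold lower, log2 -2.67, -3.15 to -2.22, adjusted p = 9.87e-43, exact test) and ranked 11 among the 166 lost regions by fold. The region over Hoxd8 (chr2:74542201-74544800) held 188 and 43 tags (4.12-fold lower) and ranked 25. The region at Hoxd9 (chr2:74535601-74537200) held 137 and 86 tags (log2 -0.59, -0.99 to -0.19) and was not called lost, since it fell by less than 2-fold. In mESCs 5 regions overlapped the cluster, at Hoxd13, Hoxd11, Hoxd9, Hoxd8 and Hoxd1, with 0 lost and 0 gained, where 0.179% of 11198 regions were lost and 0.634% gained.

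Of the 6 other genes that start within the cluster, microRNA genes such as Mir10b not counted, 2 were called lower in menin-null PILECs. Over all genes tested, 0.853% were. The lincRNA 1700109F18Rik starts on the minus strand just past the Hoxd3 TSS and shares most of its window: it had 219 tags in wt and 42 in menin-null PILECs (log2 -2.30, -2.81 to -1.81). Gm20440, which starts near Hoxd11, had 34 and 13 tags (log2 -1.30, -2.35 to -0.34) and was called lower (adjusted p = 0.0395, exact test). Its window overlaps that of Hoxd11, so the values share tags and this is not a separate fall. The antisense transcript 6720416L17Rik, which shares the Hoxd1 start, had 118 and 90 tags, Gm14396 11 and 9, Gm14424 36 and 21, and Gm14426 11 and 10, and none of these 4 was called. Tags carry no information on the strand of transcription, so a shared start cannot be divided. Of 4 protein-coding genes outside the cluster 0 were called. Lnp had 948 and 863 tags (log2 -0.05, -0.18 to 0.09), Mtx2 651 and 597 (-0.04, -0.20 to 0.12), Hnrnpa3 907 and 783 (-0.13, -0.27 to 0.01), and Evx2 27 and 37 (0.54, -0.21 to 1.31).

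The lists set beside HoxD are described by their counts. Over all genes tested, 0.853% were called lower and 0.354% higher in menin-null PILECs. In menin-null PILECs 5 of 11 HoxA, 9 of 10 HoxB and 4 of 9 HoxC starts were called lower and 0 higher, with medians of log2 -0.88, -2.43 and -0.65 beside -1.0 for HoxD. Of the TALE homeobox cofactors that bind DNA with Hox proteins (Pbx, Meis and Pknox genes), 0 of 9 were called in menin-null PILECs, and Meis1 had 1054 and 926 tags. Among 9 placed genes of the H3K4 methyltransferase complexes and 10 Polycomb genes, whose products place and oppose this mark at Hox genes, 0 were called in either direction in PILECs (medians -0.09 and -0.15). Among marker lists of other cell types, 0 of 13 islet, 0 of 4 neural, 0 of 6 fibroblast and 0 of 4 caudal markers were called. Counts of 0 in lists of this size are near the shares over all genes and do not show that wt and menin-null PILECs match. Beside the islet sum given above, summed levels were 115 and 112 for neural, 74.0 and 61.0 for fibroblast and 5.70 and 6.11 for caudal markers in wt and menin-null PILECs, and no marker was at 0. The lists differ in size. Median RPM per gene in wt and menin-null PILECs was 2.24 and 3.17 for islet and 23.5 and 24.4 for neural markers. It was 8.79 and 7.97 for fibroblast and 1.12 and 1.39 for caudal markers. The part of cell composition in the HoxD falls was not tested. By Euclidean distance over the 4 H3K4me3 libraries on the log2(RPM + 0.1) scale, the genes most like the median HoxD profile were Necab1, Slc26a8, Fut4, 4930520O04Rik and 1190002H23Rik, at distances of 0.16 to 0.34, whereas the 9 HoxD genes themselves lay 1.11 to 2.95 from their own median.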

How the data were processed

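The authors sequenced ChIP and input DNA (36-bp reads) and deposited 1 list of mapped tags per library, in mm9 coordinates, with a strand and a mapping score. The score was not used here. The tags were not normalized, and the study's methods describe tags that map to 1 place with at most 2 mismatches. In each deposited list 1.04% to 1.81% of tags had more than 2, and these were kept except in one alternative. The aligner is not given in the sources used here. The deposited lists held 2432377 to 19016697 tags.

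Tags were moved 125 bases towards the fragment centre, counted within 1 kb of each start (Ensembl annotation of mm9) and expressed per 1000000 tags of the library (RPM). Genes with at least 10 tags in a pair of libraries were tested with an exact conditional binomial test with Benjamini-Hochberg adjustment over all of them. Log2 ratios are of RPM, and 1 tag was added to each count for calls, for medians over lists and for alternative settings. A call needed a 2-fold difference and an adjusted p of at most 0.05, and stage differences needed the adjusted p alone. Stretches were scored by their exact 95% intervals. Regions joined 200-bp windows with at least 6 (mESC) or 13 (PILEC) tags and 2-fold over input, with gaps of up to 400 bp and a length of at least 1000 bp. The code was tested on simulated data. The genes named are the 9 members, every gene that starts between them, the 2 nearest protein-coding genes on each side, Men1, and the 5 genes with the smallest distance to the median HoxD profile. Other genes named (list members and paralogues) were chosen after their values were seen. Tags at a shared position were kept. The members and gene lists, and the tests, were chosen with earlier results of these data known. Software was Python 3.11.15, numpy 2.4.6, pandas 2.3.3, scipy 1.17.1 and matplotlib 3.10.9. Intervals and floors (3 tags) cover counting error only. Alternatives changed the window, start, tag shift, scaling, input, duplicates, mismatches, tag minimum, fold and added tags. Values of some single list members are not reported here.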

Additional observations from a re-analysis of the deposited data

Results flagged for a closer look

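At 3 HoxD genes the menin-null over wt ratio of H3K4me3 differed between PILECs and mESCs in an exact test of the difference itself. On the log2 scale, the PILEC ratio minus the mESC ratio was -3.42 at Hoxd3, where the tags were 6 in wt and 20 in menin-null mESCs and 197 and 40 in PILECs. It was -2.41 at Hoxd8, with 36 and 70 tags in mESCs and 155 and 37 in PILECs. It was -2.34 at Hoxd11, with 16 and 39 tags in mESCs and 51 and 16 in PILECs. The call at Hoxd11 was lost with its 5′-most start (-0.08) and when libraries were scaled by the tags in enriched regions. Such a call was made at 11.9% of all genes tested. Each ratio rests on 1 library per group, so the difference is between libraries.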

How the results depend on the processing

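With 1 library per group no replicate could be left out. No paired analysis was possible because each group has 1 library. The calls of Hoxd3 and Hoxd8 as lower in menin-null PILECs held under every alternative run, and Hoxd4 lost its call with its 5′-most start alone. The cause of the changes below was not tested. The order of the falls in menin-null PILECs changed with the setting. Within 0.5 kb of the start, Hoxd8 (-2.07) and Hoxd4 (-1.91) fell more than Hoxd3 (-1.80). With input subtracted, Hoxd4 (-5.59) and Hoxd10 (-4.00) fell more than Hoxd3 (-2.58). With the 5′-most annotated start of each gene, the count of HoxD genes lower in menin-null PILECs fell from 4 to 2 and that lower in wt PILECs than wt mESCs from 5 to 3, and Hoxd4 between the stages turned to 0.81 in wt and 0.37 in menin-null cells. With a 3-fold limit the count for wt PILECs against wt mESCs was also 3, and scaled by tags in enriched regions it was 7, with Hoxd9 (-1.03) and Hoxd8 (-1.06) added. With input subtracted, 1 HoxD gene (Hoxd3, log2 3.28) was higher in menin-null mESCs, and the cluster total in wt PILECs over wt mESCs went from -0.44 to -0.17 with an interval that contained 0. The cluster total in menin-null over wt mESCs, 0.005 as reported, was -0.28 when scaled by tags in enriched regions, -0.21 when scaled to a median ratio of 0, both with intervals below 0, and -0.12 with input subtracted, with an interval that contained 0. In menin-null PILECs the net cluster total did not exceed input, although single starts did, so input subtraction gave no ratio for that total. Hoxd10 was called lower in menin-null PILECs at 2 kb (-1.19) and with input subtracted. Depth limits the mESC values, which rest on 6 to 88 tags per HoxD start.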

Other observations

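Set beside paralogues in the HoxA, HoxB and HoxC clusters, HoxD starts are given here by paralogue group, as log2 ratios of menin-null over wt PILECs with 1 tag added to each count. Differences between paralogues were not tested. In group 3, Hoxa3 (-3.11), Hoxb3 (-2.19) and Hoxd3 (-2.19) were all called lower. In group 8, Hoxb8 (-3.50), Hoxc8 (-2.10) and Hoxd8 (-1.95) were all called lower. In group 9, Hoxa9 (-2.59), Hoxb9 (-2.31) and Hoxc9 (-2.60) were called lower and Hoxd9 (-0.47) was not. In group 10, Hoxa10 (-2.62) and Hoxc10 (-1.35) were called lower and Hoxd10 (-1.0) was not. In group 11, Hoxd11 (-1.53) was called lower, a call lost with its 5′-most start (-0.15), and Hoxa11 (-0.27) and Hoxc11 (-0.65) were not called. In group 4, Hoxb4 (-2.31) and Hoxd4 (-1.85) were called lower, and Hoxa4 (-0.21) and Hoxc4 (0.06) were not. The Hoxd4 call was lost with its 5′-most start (-0.97). In group 1, Hoxb1 (-1.30) was called lower and Hoxd1 (-0.30) was not. In groups 12 and 13 none was called, Hoxd13 standing at 0.25 and Hoxa13 at -0.36.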
